A study of Homo sapiens with 18 samples.

Results

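The AP-1 and immediate early genes examined here were FOS, FOSB, FOSL1, FOSL2, JUN, JUNB, JUND, ATF3, EGR1 and IER2, which are 10 of 19103 protein-coding genes on chromosomes 1 to 22. They were chosen by name. Each gene was examined over its body in GENCODE (hg38) plus 20 kb on either side, and a ChIP-seq peak belonged to a gene if it shared at least 1 bp with this window. The peaks came from HEK293T cells, an established human embryonic kidney line, which were either left untreated (CTRL) or given 1 mM valproic acid (VPA) for 1 day. Peaks of acetylated lysine 27 of histone H3 (H3K27ac) and of the DNA-binding protein CTCF were compared between CTRL and VPA, with 3 libraries per antibody and treatment. Peaks of the 6 libraries of an antibody that overlapped were merged into regions. The gene windows held 57 of 55382 H3K27ac regions and 51 of 69985 CTCF regions. Nothing in the labels says that the 3 replicates were separate cultures, so p-values measure only the spread between these libraries. All groups were 1 cell line, and peak lists carry no expression, so the identity of the cells was not checked by marker genes.

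AP-1 is a dimeric transcription factor built from FOS proteins (FOS, FOSB, FOSL1 and FOSL2) and JUN proteins (JUN, JUNB and JUND). All of them carry a leucine zipper, through which FOS proteins pair with JUN proteins, while JUN proteins can also pair with each other. ATF3 is a related zipper protein of the stress response that can pair with JUN proteins. EGR1 is a zinc finger factor and IER2 a small nuclear protein, and both are, like FOS and JUN, immediate early genes, which growth factors switch on within minutes without new protein synthesis. At such promoters, serum response factor binds the CArG box and CREB or ATF proteins bind the cyclic AMP response element (CRE). H3K27ac marks active promoters and enhancers, VPA inhibits histone deacetylases, and CTCF binds insulators and the anchors of chromatin loops.

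The promoter sequences that the H3K27ac regions below lie on are shown first, because they carry the elements by which these genes are known. A CArG box lay within 400 bases upstream of the start in 3 of the 10 genes, against 1.89% of all 19103 genes. FOS held 1, at −314 bases from its start, FOSB 1, at −274, and EGR1 4, of which the nearest pair is shown (hg38, capitals mark the CArG box).
FOS, chr14:75278499-75278538, plus strand: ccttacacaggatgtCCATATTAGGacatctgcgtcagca
FOSB, chr19:45467707-45467746, plus strand: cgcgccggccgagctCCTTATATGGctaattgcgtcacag
EGR1, chr5:138465359-138465398, plus strand: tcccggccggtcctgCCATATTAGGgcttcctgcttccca
EGR1, chr5:138465381-138465420, plus strand: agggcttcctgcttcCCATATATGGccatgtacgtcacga

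The RefSeq promoter table (GRCh38.p14, a window around each start) had an entry at the start used here for 8 of the 10 genes. FOSL1 and ATF3 were those without one. The 8 promoters all held TGACG, the part of the CRE that CREB and ATF proteins need, on one strand or the other, as did 24.8% of the 26246 promoters in the table. The complete CRE, TGACGTCA, was present in 1 of the 8, JUND, and in 2.00% of the table. The AP-1 site TGANTCA, to which FOS and JUN dimers bind, was present in FOSL2 alone, against 7.73% of the table, and the GC box GGGCGG in 6 of the 8 (44.7% of the table; both strands were searched for each motif, and TGACG overlaps TGACGTCA). The last 100 bases before the start are shown for FOS and FOSB, whose TGACG lies at −64 and −60 bases, and for JUND, JUN and JUNB as the members of the other family (capitals mark TGACG or its complement CGTCA, and JUN and JUNB hold theirs further upstream).
FOS, chr14:75278728-75278827, plus strand: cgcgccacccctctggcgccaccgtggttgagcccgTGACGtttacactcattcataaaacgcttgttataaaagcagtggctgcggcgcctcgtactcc
FOSB, chr19:45467896-45467995, plus strand: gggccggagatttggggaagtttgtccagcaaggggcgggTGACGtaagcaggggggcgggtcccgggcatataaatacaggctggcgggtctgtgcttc
JUND, chr19:18281623-18281722, minus strand: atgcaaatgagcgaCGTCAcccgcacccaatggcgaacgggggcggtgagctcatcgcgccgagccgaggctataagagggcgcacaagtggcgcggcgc
JUN, chr1:58784048-58784147, minus strand: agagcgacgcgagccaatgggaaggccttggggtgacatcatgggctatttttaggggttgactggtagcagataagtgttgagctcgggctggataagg
JUNB, chr19:12791386-12791485, plus strand: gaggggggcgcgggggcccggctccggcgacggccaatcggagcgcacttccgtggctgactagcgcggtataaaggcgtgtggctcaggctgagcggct

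The height of a peak is given as its summit pileup, the number of sequenced fragments over the summit, and as its fold enrichment over the local background. How many reads each library had is unknown. Its proxy, the genome-wide background coverage, was 3.51 to 3.95 fragments in all 12 libraries. This bears on depth alone, and pileups differed by more than that range between libraries of 1 treatment. The median H3K27ac pileup over a library's peaks was 109 in CTRL 1, 71 in CTRL 2 and 67 in CTRL 3. VPA libraries held more H3K27ac peaks (38441 to 40992) than CTRL libraries (26299 to 29799). Replicate 1 stood apart in both treatments: at the H3K27ac promoter regions of the members its median local background was 51.4 and 56.8 fragments, against 12.4 to 14.7 in replicates 2 and 3. Its fold enrichments were correspondingly low, while its pileups were not. Pileups rest on peaks, so a library without a peak has no value, and counting error is the least error each carries. No spike-in is described, so a loss of H3K27ac at a summit and a spread of the same reads over more regions cannot be told apart.

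H3K27ac summit pileup was lower in VPA at the promoters of 7 of the 8 genes that could be fitted, and the exception was JUNB. Over all 10065 fitted promoter regions, 89.0% were lower in VPA as well. The promoter region of a gene was one with a peak summit within 1 kb of its start, and 9 of the 10 genes had one. The plot of promoter pileups by library shows the values. In the FOS family, FOS itself had pileups of 285, 268 and 277 fragments in CTRL and 152, 136 and 155 in VPA (mean ± SD, 277 ± 8.5 and 148 ± 10.2, n = 3 each). The groups were far apart, and VPA was between 0.507 and 0.560 of CTRL within each replicate number. The highest FOS summit lay at −0.67 kb in VPA 2 and at −0.17 to −0.15 kb in the other libraries. FOSL2, a FOS protein that lacks the strong activation domain of FOS, had 421, 379 and 295 in CTRL and 293, 223 and 183 in VPA. Its lowest CTRL library thus stood just above its highest VPA library. FOSB had 331, 266 and 207 in CTRL and 247, 213 and 168 in VPA, and these groups overlapped. The highest FOSB summits lay at 1.01 to 1.05 kb in all libraries, and the region counted as a promoter through a lower summit at −0.50 kb in VPA 1. FOSL1, which is best known from RAS-driven tumour cells, had the weakest promoter of the members, with 50 and 49 fragments in CTRL 2 and 3, 44 and 55 in VPA 2 and 3, and no peak in either replicate 1.

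Among the JUN proteins, JUN, the main partner of FOS, had the tallest promoter peak of all members, with 1183, 930 and 804 fragments in CTRL and 718, 563 and 545 in VPA. JUND, which most cells make without stimulation, had 918, 800 and 661 in CTRL and 616, 481 and 473 in VPA. Its merged region also held the promoter of IQCN, and its highest summit lay at −0.62 to −0.66 kb in the CTRL libraries and VPA 2 but at 1.36 kb in VPA 1 and VPA 3, so its values compare different summits. Both genes had every VPA library below every CTRL library. JUNB, which often restrains JUN, had 220, 227 and 193 in CTRL and 263, 227 and 231 in VPA, so that its VPA value was above or equal to CTRL in each replicate number. The CTRL 3 summit of JUNB lay at 1.91 kb, and those of the other libraries at 0.21 to 0.29 kb. ATF3 has several starts. The one used here, that of its MANE Select transcript, lies 43.4 kb inside the gene, and the region there had 1088, 907 and 886 fragments in CTRL and 670, 524 and 526 in VPA. These groups were also apart, with ratios of 0.578 to 0.616 within a replicate number. EGR1 had 427, 352 and 302 in CTRL and 333, 279 and 264 in VPA, with overlapping groups. Its highest summit lay between −0.95 kb (VPA 1) and −0.20 kb (VPA 3), so its values also compare different summits. IER2 had no summit within 1 kb of its start, but a broad region (chr19:13149102-13156350) covered the start and the gene, with its summit in the gene at 1.94 kb. That region had 517, 493 and 473 fragments in CTRL and 346, 311 and 325 in VPA, without overlap.

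**Figure D1:**
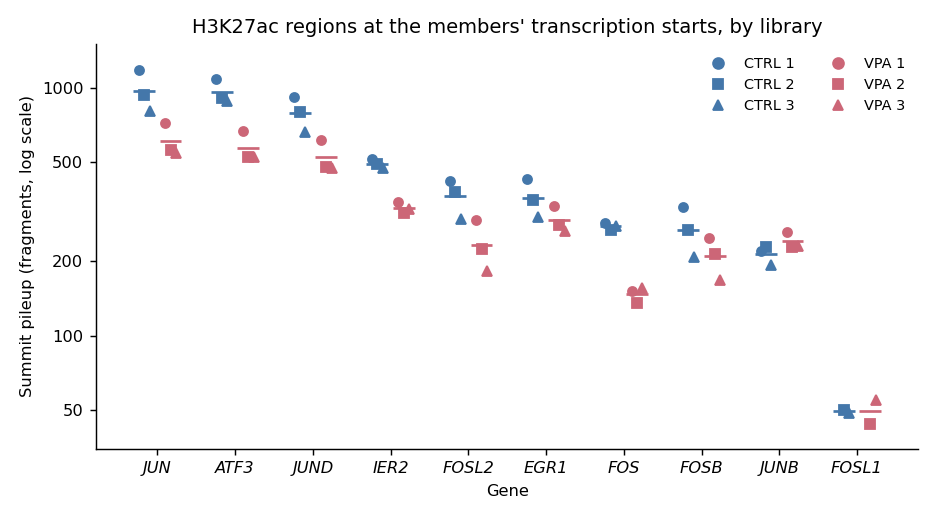
H3K27ac summit pileup (fragments over the summit, log axis) in each library at the region over each gene's start, with CTRL in blue and VPA in red, 1 symbol per replicate number and a line at the mean of each group. JUN, ATF3, JUND, IER2, FOSL2 and FOS have all VPA libraries below all CTRL libraries, EGR1 and FOSB overlap, JUNB is level or higher, and FOSL1 has no peak in replicate 1.

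In order of level, JUN, ATF3 and JUND held the first 3 places in all 6 libraries among the genes with a promoter region. FOS was 6th or 7th of these in the CTRL libraries and 8th in each VPA library, below JUNB and FOSB. The neighbours JUN and ATF3 changed places in CTRL 3, and FOSL2 and EGR1 in CTRL 2, so the order of these pairs is within the spread of the libraries.

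Whether these differences exceed the spread between replicates was tested with limma over all regions with a peak in 6 of 6 libraries, 18407 for H3K27ac, of which 28 lay in the gene windows. On fold enrichment, without a replicate term, no region passed an adjusted p (Benjamini-Hochberg) of 0.05 in either direction, 0% of all regions and 0 of the 28; the unadjusted p was under 0.05 at 301 of all regions and at 0 of the 28. The differences at the promoters ran from −0.87 at FOS and −0.85 at ATF3 to 0.02 at JUNB on the log2 scale, with standard errors of 0.68 to 0.76. In H3K27ac, same-numbered libraries deviated together most clearly in replicate 1, with a correlation of 0.87 on fold enrichment against at most −0.69 with another number. In replicates 2 and 3 it was 0.59 each, against up to 0.61 and 0.55 with another number. With the number as a block, FOS (−0.87 ± 0.22 SE, adjusted p = 0.0155), ATF3 (−0.85 ± 0.19, adjusted p = 0.00922) and JUND (−0.68 ± 0.20, adjusted p = 0.0302) fell, and no member region rose. Among all regions 11.8% were then called lower and 4.73% higher, and of the 10065 promoter regions 1606 were called lower and 120 higher. Centring each library on its median with the block moved the split over all regions to 8.57% lower and 6.45% higher. Of the 10065 promoter regions 1162 were then called lower and 203 higher, and the same 3 member promoters were called.

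On summit pileup over the genome-wide background, which leaves out the local background, 4 of the 28 regions were called lower and 0 higher, and all 4 were promoters. FOS fell by 0.95 on the log2 scale (SE 0.21, adjusted p = 0.00716 by limma), to 0.516 of CTRL. ATF3 fell by 0.79 (SE 0.24, adjusted p = 0.0287), JUN by 0.72 (SE 0.25, adjusted p = 0.0473) and FOSL2 by 0.71 (SE 0.24, adjusted p = 0.0420). Below the threshold of the test stayed IER2 (−0.64, adjusted p = 0.0508), JUND (−0.64, adjusted p = 0.0635), FOSB (−0.40, adjusted p = 0.208), EGR1 (−0.34, adjusted p = 0.271) and JUNB (0.13, adjusted p = 0.675). The background to these counts was 13.3% of all regions called lower and 4.04% higher, and 17.7% of the 10065 promoter regions called lower and 0.636% higher. In the 8 members' promoters the median was −0.68, against −0.42 in all promoter regions and −0.28 in all regions. Leaving out 1 library at a time, the count called lower was 1 without CTRL 1, 1 without CTRL 2 and 2 without CTRL 3. It was 12 without VPA 1, 0 without VPA 2 and 1 without VPA 3. The share of all regions called lower was not counted in these fits. FOS lost its call only without VPA 2 (−0.86, adjusted p = 0.0603). ATF3 and JUN lost theirs without any library other than VPA 1, with adjusted p of 0.0600 to 0.184 and 0.0647 to 0.247, and FOSL2 did so without CTRL 1, CTRL 2, VPA 2 or VPA 3, with adjusted p of 0.0906 to 0.278.

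With the replicate block, the pileup fit called 15 of the 28 regions lower and 2 higher, where it called 53.7% of all regions lower and 12.2% higher. The 15 included 7 of the 8 promoters, all but JUNB, where the fit called 74.5% of all promoter regions lower and 3.7% higher. Centring each library on its median moved the median of all regions from −0.28 to −0.04, and changes are then relative to the other regions. Of the 28 regions, 9 were then called lower and 6 higher (27.1% and 11.9% of all regions), and of the 8 promoters 5 lower and 1 higher (40.7% and 7.18% of all promoter regions). The promoter called higher was JUNB, with 0.36 (adjusted p = 0.0270), which without centring was not called. JUND joined the 4 promoters called lower without centring (−0.41, adjusted p = 0.00144). Counted without a fit, every VPA library lay below every CTRL library at 7 of the 28 regions and above at 3, against 23.8% and 10.8% of all regions.

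The change in VPA followed the level of the promoter. Split by mean pileup over the 6 libraries into 5 bands of 2013 promoters each, the median change was −0.12, −0.29, −0.40, −0.51 and −0.67 from band 1, the lowest, to band 5. The share called lower ran from 7.05% in band 1 to 41.6% in band 5. JUN, ATF3 and JUND were in band 5, where 41.2%, 29.2% and 53.6% of promoters had a lower change than theirs, so their changes were near the middle of promoters of their level. FOS was in band 2, with a geometric mean of 202 fragments, and 1.24% of that band had a lower change. FOSL2 was in band 3, with 11.1% of promoters lower. EGR1, also in band 3, had 60.1% lower and FOSB, in band 2, 33.0%. JUNB, in band 2 as well, had 93.2% of promoters lower. FOS, FOSB and JUNB thus had like levels and spread over most of the range of changes seen at that level, as the plot of change against level shows.

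**Figure D2:**
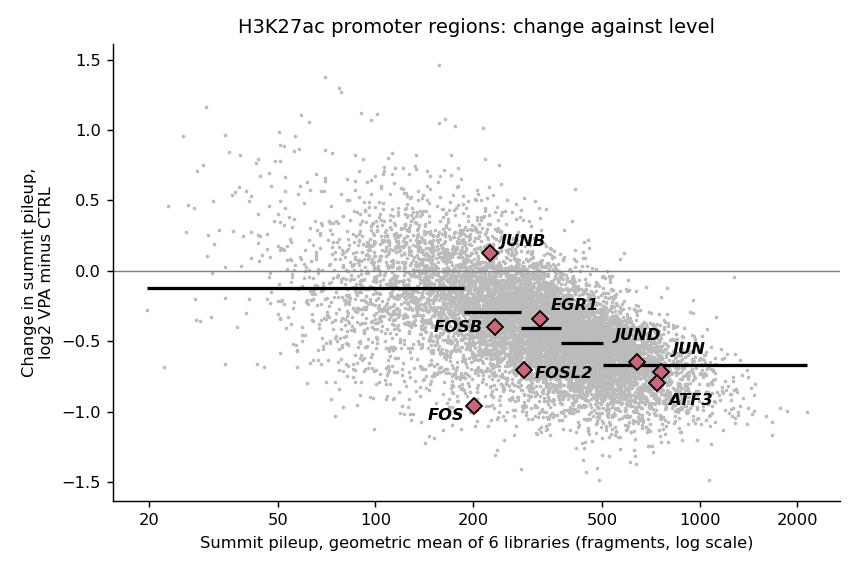
Change in H3K27ac summit pileup in VPA (log2 VPA minus CTRL) against mean pileup (log axis) for 10065 promoter regions (grey points), with the median of each of 5 level bands as a black line and the 8 fitted members as red diamonds. The medians run from −0.12 to −0.67, FOS lies near the lower edge at its level, JUNB near the upper edge, and JUN, ATF3 and JUND lie by the median of the highest band.

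Regions at no promoter differed from the members' own promoters, while the promoters of neighbouring genes were lower in VPA as well. The fitted regions comprised 8 at own promoters, 5 at promoters of neighbouring genes and 15 at no promoter, IER2's gene region among the last. Over all promoter regions the median was −0.42, with 17.7% called lower. The 5 neighbouring promoters had a median change in pileup of −0.47, with 5 below 0 and none called. In the window of FOSL1 they were those of C11orf68 with DRAP1 (−0.60) and CCDC85B with FIBP (−0.47). In the window of JUNB they were those of HOOK2 (−0.04), PRDX2 with THSD8 (−0.67) and RNASEH2A (−0.44). After centring, 2 of the 5 were called lower, against 40.7% of all promoter regions. With the replicate block the adjusted p by limma was 0.708 at HOOK2 and at most 1.35e-06 at the others. That fit called 74.5% of all promoter regions lower. The 15 regions at no promoter had a median of 0.14, with 6 below 0 and none called. All 8342 such regions had a median of −0.02 and 51.9% below 0, with 8.15% called higher and 8.06% called lower. In the gene windows the median CTRL pileup of this class was 225 fragments, against 70.0 over all regions at no promoter. Every VPA library exceeded every CTRL library at 1726 of all 8342 regions at no promoter and at 259 of the 10065 promoter regions. In the gene windows all 3 such regions were at no promoter. One lay 9.23 kb from the start of FOS, with 42, 34 and 39 fragments in CTRL and 59, 62 and 60 in VPA (0.61, adjusted p = 0.0549, and 0.00149 with the replicate block). The second lay 15.8 kb from the start of FOS, with 207, 231 and 214 in CTRL and 240, 258 and 255 in VPA (0.16, adjusted p = 0.579). The third lay in an intron of HOOK2 at −8.74 kb from the start of JUNB, with 96, 81 and 89 in CTRL and 130, 118 and 113 in VPA (0.39, adjusted p = 0.152, and 0.00646 with the block). The remaining fitted FOS region, at −19.3 kb, had 273, 366 and 335 in CTRL and 290, 255 and 301 in VPA, with overlapping groups (−0.24, adjusted p = 0.430, and 0.0159 with the block). Of the 4 fitted FOS regions the promoter and the one at −19.3 kb were thus lower in VPA by the fit with the block. That fit called 53.7% of all regions lower and 12.2% higher. After centring the promoter was still called lower (adjusted p = 0.00392 by limma), but the region at −19.3 kb was not (−0.0039, adjusted p = 0.989). The FOS region at 9.23 kb was higher by the block fit and after centring (adjusted p = 0.0184 centred), and the one at 15.8 kb was called by neither. Other FOS regions lacked a peak in some libraries: the one at 7.70 kb had peaks in CTRL 1 and all VPA libraries, and those at −17.6, 21.9 and 23.1 kb in VPA 1 alone.

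Of the 57 H3K27ac regions, 2 had peaks in all 3 VPA libraries and none in CTRL, against 4.12% of all regions, and 0 had peaks in all CTRL libraries alone, against 0.139%. Both were in the window of IER2. One, with its summit at −7.28 kb (chr19:13142660-13143939), had 38, 59 and 37 fragments in VPA. The other, at 22.3 kb (chr19:13171825-13173351), had 40, 47 and 40. Both are low next to the 311 to 346 fragments over IER2 itself in VPA. A further 20 regions had peaks in VPA only but in fewer than 3 libraries, 5 of them in 2 libraries and 15 in 1, against 35.3% of all regions. With the 2 above these were 22 of the 57 regions, against 39.4% of all regions, and 0 of the 57 had peaks in CTRL only, against 5.2%. With VPA lists cut to the length of the CTRL lists neither of the 2 remained, nor did either when only peaks with −log10 q from 10 upwards were kept. Without VPA 1 the count was 7, where the share over all regions was not counted. The map of the FOS and IER2 windows shows the peaks of each library.

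**Figure D3:**
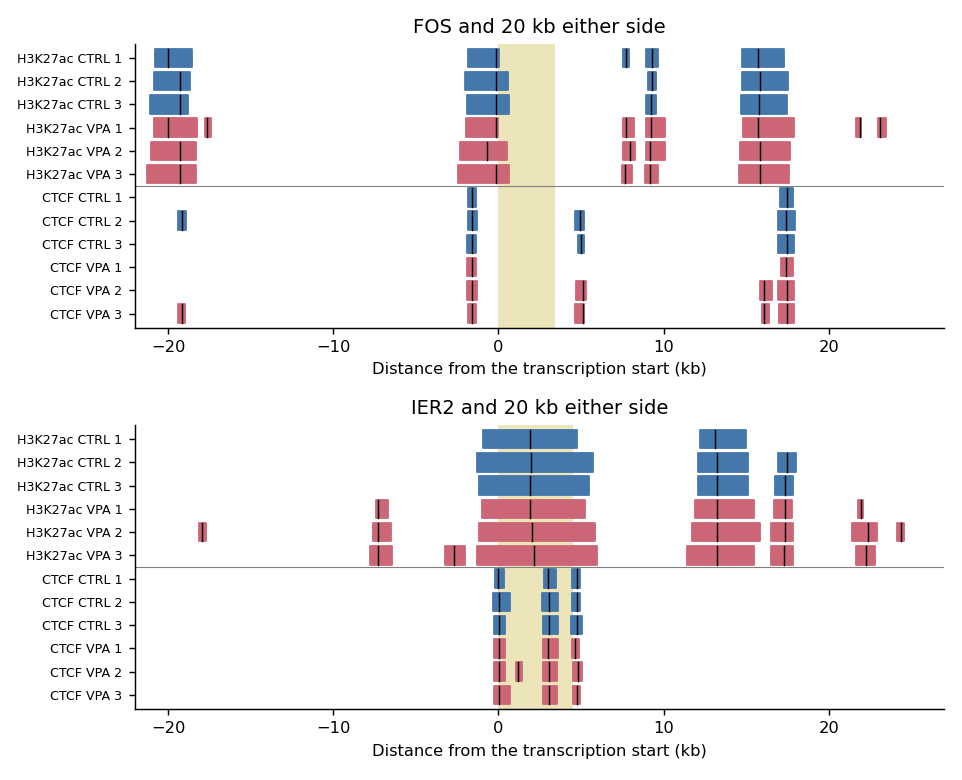
Peaks of each library (bars, with the summit as a black tick) around FOS and IER2 by distance from the transcription start (kb), CTRL in blue, VPA in red and the gene body shaded. At FOS the 4 regions present in all libraries lie at the same places in both treatments, while at IER2 the regions at −7.28 and 22.3 kb appear in VPA alone.

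The length under H3K27ac peaks in the gene window was longer in VPA at 9 of 10 genes within every replicate number, and JUN was the exception; 77.5% of 16606 protein-coding genes with any peak did the same. Every VPA library exceeded every CTRL library at 2 of the 10 genes, FOS and IER2, against 34.5%, and at 0 genes was VPA shorter throughout, against 0.169%. In the FOS window the peaks covered 6998, 7271 and 7227 bp in CTRL and 9746, 9490 and 9275 bp in VPA, a ratio of means of 1.33. In the IER2 window they covered 8538, 11117 and 10733 bp in CTRL and 11984, 15845 and 16163 bp in VPA, a ratio of 1.45. For each gene the exact permutation test (two-sided) gave p = 0.100, the smallest that 3 against 3 libraries allow. JUND had the highest ratio, 1.65, with 5356, 7308 and 7485 bp in CTRL and 6970, 13379 and 12899 bp in VPA, where VPA 1 fell among the CTRL libraries. JUN, by contrast, covered 4279, 5484 and 5795 bp in CTRL and 4725, 5322 and 5544 bp in VPA. The other ratios were 1.06 at FOSL2, 1.25 at FOSL1, 1.27 at EGR1, 1.31 at ATF3, 1.42 at JUNB and 1.5 at FOSB, and the median over all genes with peaks in CTRL was 1.31. VPA 1 had the shortest coverage of the VPA libraries at 9 of the 10 genes. Without it, 9 genes had every VPA library above every CTRL library, and with lists of equal length 1 did. The share over all genes was not counted in these settings, and groups of fewer libraries separate more readily. FOS and IER2 had longer coverage in VPA while the summit pileup at the FOS promoter and over IER2 was lower, and JUN had a lower promoter summit at like coverage.

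**Figure D4:**
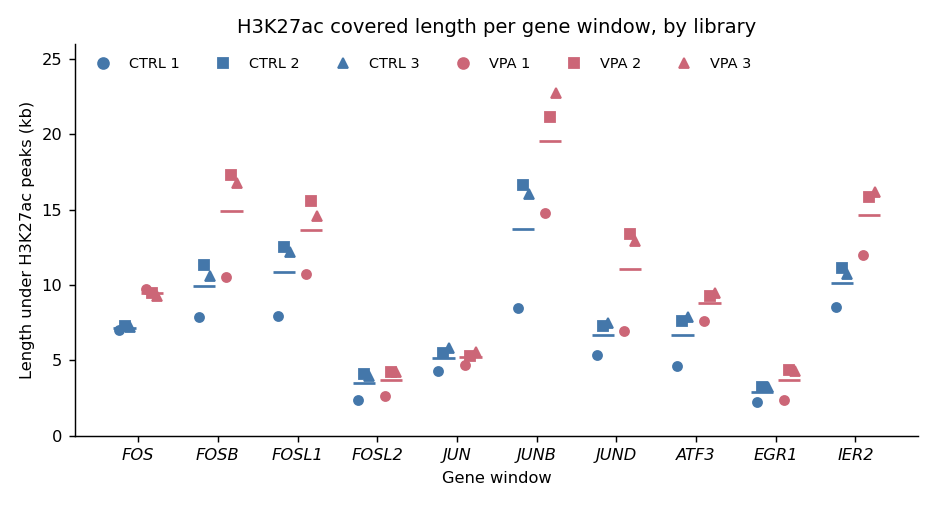
Length under H3K27ac peaks (kb) in each gene window by library, CTRL in blue and VPA in red, 1 symbol per replicate number and a line at the group mean. Replicate 1 is the lowest library in most groups, and FOS and IER2 are the genes whose groups do not overlap.

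For CTCF, 28 of the 51 regions in the gene windows had peaks in 6 of 6 libraries, and 0 of these were called in either direction on fold enrichment, as were 0% of all 27794 regions; 254 of all regions and 0 of the 28 had an unadjusted p under 0.05. The summits of 36 of the 51 CTCF regions lay in an H3K27ac consensus region (a peak in at least 2 libraries) of CTRL and of 42 in one of VPA, against 16.7% and 21.7% of all CTCF regions. The windows were set around genes, most of which had an H3K27ac promoter region. The tall sites lay both near the starts and far from them. EGR1 had one at −1.21 kb (chr5:138463263-138464955) with 2258, 1135 and 911 fragments in CTRL and 3436, 1115 and 869 in VPA. A second lay at −15.3 kb (chr5:138449370-138450664) with 1977, 996 and 843 in CTRL and 2416, 1034 and 849 in VPA. JUND had one at 2.04 kb, just past the gene's end (chr19:18276591-18280658), with 2438, 1425 and 1215 in CTRL and 3865, 1347 and 1079 in VPA. As tall were the sites 15.8 kb upstream of JUNB, in an intron of HOOK2, and 15.6 kb downstream of the start of FOSL1, in an exon of FIBP. At the EGR1 and JUND sites replicates 2 and 3 differed little between treatments and replicate 1 was the tall one in both.

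At the starts themselves CTCF was mostly weak. A CTCF promoter region was found for 6 of the 10 genes and could be fitted for 4. ATF3 had the tallest, with 1987, 1016 and 892 fragments in CTRL and 2706, 813 and 727 in VPA (log2 fold enrichment 0.14 ± 0.65 SE). IER2 had 315, 212 and 188 in CTRL and 402, 155 and 130 in VPA (0.16 ± 0.46), with its summit 20 bases from the start. FOSL2 had 306, 117 and 118 in CTRL and 403, 106 and 99 in VPA (0.21 ± 0.45), and FOSB 188, 85 and 94 in CTRL and 143, 42 and 43 in VPA (−0.60 ± 0.29). The adjusted p by limma was 1.00 at each. JUND and JUNB had 44 fragments or fewer at their starts in every library with a peak other than JUND in VPA 1, which had 115. The largest differences among the members were −1.10 ± 0.76 at FOSL1 −11.6 kb, −0.88 ± 0.74 at FOSB 11.1 kb and 0.60 ± 0.49 at FOSB 17.4 kb (adjusted p = 1.00 each). The first 2 of these rested on VPA 1: FOSL1 −11.6 kb had 361, 342 and 293 in CTRL and 112, 260 and 219 in VPA, and FOSB 11.1 kb had 1226, 953 and 889 in CTRL and 121, 1068 and 857 in VPA. Without VPA 1 they were −0.34 and −0.07.

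Replicate 1 differed from replicates 2 and 3 at many CTCF sites, and in both directions. At JUN 14.6 kb it had 110 fragments in CTRL and 136 in VPA, where the other 4 libraries had 986 to 1193. At ATF3 −12.7 kb it had 45 and 96, where the other libraries had 187 to 714, the 187 being VPA 2. Within replicates 2 and 3 alone the JUN site was level between treatments. The cause of these gaps was not tested. The plot of CTCF pileups shows them for all 28 regions.

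**Figure D5:**
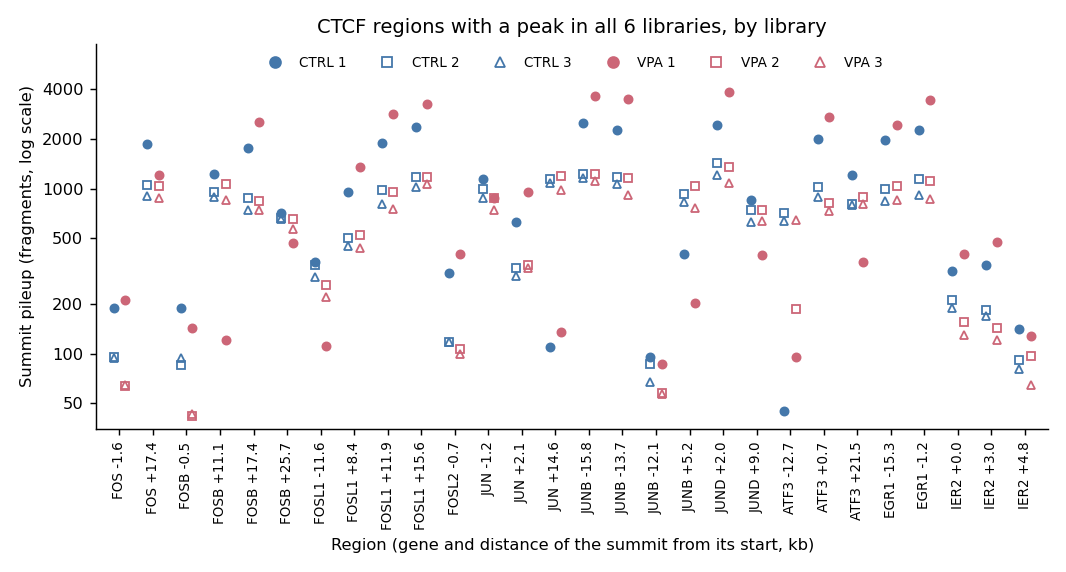
CTCF summit pileup (fragments, log axis) by library at the 28 regions with peaks in all 6 libraries, labelled by gene and distance of the summit from its start (kb), CTRL in blue, VPA in red, replicate 1 filled and replicates 2 and 3 open. Replicate 1 lies above the open symbols at the tall EGR1, JUND and JUNB −13.7 kb sites and below them at JUN 14.6 kb and ATF3 −12.7 kb.

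A CTCF core motif of 14 letters, with at most 1 mismatch and within 100 bases of the summit, was present in 10 of the 51 regions (19.6%) and in 7 of the 28 with peaks in all libraries (25%), against 26.6% and 42.1% of all such regions. The cores at 2 tall sites, at the site that replicate 1 nearly lacked and downstream of FOS are shown (hg38, capitals mark the core).
EGR1 −15.3 kb, chr5:138450125-138450154, plus strand: ggaaaagcCCACTAGGTGGCGCagctgcct
JUNB −13.7 kb, chr19:12777726-12777755, plus strand: gcccgggcCCACCAGGGGGCGCggagaccg
JUN 14.6 kb, chr1:58769428-58769457, minus strand: aaacagtgCCGGTAGATGGCGCcagagggc
FOS 17.4 kb, chr14:75296258-75296287, minus strand: tcacatgtGCACTAGGGGGCAGagctgccg
The EGR1 and JUNB cores match the motif in full and the other two have 1 mismatch. The JUNB site, in an intron of HOOK2, had 2259, 1175 and 1058 fragments in CTRL and 3484, 1160 and 914 in VPA. The FOS site had 1867, 1048 and 905 in CTRL and 1209, 1036 and 877 in VPA, so that its CTRL 1 was high and the other 5 libraries were close.

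Of the 51 CTCF regions 1 had peaks in all VPA libraries and none in CTRL, against 0.186% of all regions, and 0 had the reverse, against 0.326%. It lay in an intron of HOOK2 at −8.97 kb from the start of JUNB (chr19:12782331-12782742), with 191, 60 and 61 fragments in VPA. This is within the H3K27ac region at −8.74 kb that was also higher in VPA in every library. At equal list lengths it did not remain, and without VPA 1 the count was 2. No gene had CTCF coverage that was longer in every VPA library or shorter in every one. Over the 17917 genes with any CTCF peak the shares were 0.793% and 1.65%. Without VPA 1, 3 genes had longer coverage. Shares over all regions or genes were not counted without VPA 1.

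The wider pathway was read with the same pileup fit at H3K27ac promoter regions. Of 9 other AP-1 partner genes, which encode zipper proteins that can pair with FOS or JUN proteins, 7 were fitted, with 2 called lower, 0 higher and a median of −0.13. The 2 were ATF2 (−0.70, adjusted p = 0.0469) and ATF7 (−0.77, adjusted p = 0.0252), both CRE-binding partners of JUN. BATF3, MAFF, MAFG and MAFK lay between −0.13 and 0.12. After centring, BATF3 was called higher and 2 of the partner genes were called lower. Of 19 other immediate early genes 13 were fitted, with 6 called lower, 0 higher and a median of −0.55. They were IER5 (−1.07, adjusted p = 0.0112), the zinc finger genes KLF6 (−0.99) and KLF10 (−0.80), the survival gene MCL1 (−0.81), PHLDA1 (−0.78) and DUSP1, a phosphatase of MAP kinases (−0.71, adjusted p = 0.0450). KLF2 (0.28), ZFP36 (0.14) and NR4A1 (0.13) were not called, but were called higher after centring, where 7 of the 13 genes were called lower. The change without centring was below 0 at 10 of the 13. Of 9 upstream factors and kinases all were fitted, with 3 called lower, 0 higher and a median of −0.54. These were the CArG-binding SRF (−0.82, adjusted p = 0.0338), its partner ELK4 (−1.14, adjusted p = 0.0105) and CREB1 (−0.86, adjusted p = 0.0305), while ELK3 (−0.22) and the kinases MAPK3, MAPK8, MAPK9 and MAPK14 (−0.54 to −0.34) were not called. The shares called in the lists are to be read beside the 17.7% of all promoter regions, and the lists were small. Among all promoters the share called lower rose with level, from 7.05% in band 1 to 41.6% in band 5. The list genes were not set against promoters of their own level. After centring, 6 of the 9 upstream factors and kinases were called lower and 0 higher, against 40.7% and 7.18% of all promoter regions. The same shares stand beside the centred counts of the other lists. On fold enrichment no gene of the lists was called without the block. With it, 0 partner genes, 5 immediate early genes and 2 upstream factors and kinases were called lower, against 1606 of all 10065 promoter regions. No CTCF promoter region of the lists was called, with 4, 9 and 6 fitted.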

How the data were processed

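H3K27ac and CTCF ChIP-seq of HEK293T cells was analysed from 12 peak lists, 1 per library; the 6 input libraries of the 18 samples were not analysed here. According to the processing notes, the authors aligned reads to hg38 with Bowtie2, called peaks with MACS3 3.0.0a7 at a q-value of 0.05 and used DiffBind; the use of input in peak calling and the treatment of duplicates are not given in the sources used here. The deposited lists give each summit's fold enrichment (a ratio over local background). The deposited lists also hold −log10 p-values and −log10 q-values, and a display score made by the peak caller that the authors deposited and that was not used.

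Summit pileup and local background were recovered from the fold enrichment and the Poisson p-value, and at least 99.9975% of peaks in each library came out whole within 0.05. No read depth is given, and counting error is only part of the error of a pileup. Peaks sharing 1 bp were merged into regions, the highest peak gave a library's value, and regions with peaks in 6 of 6 libraries were fitted with limma 3.58.1 (R 4.3.3, trend) on log2 values over all regions, with Benjamini-Hochberg adjustment and calls at 0.05. Pileups were divided by the library's genome-wide background. Covered length was compared with an exact permutation test. Gene models were from GENCODE release 44 and promoters from RefSeq GRCh38.p14. Scripts used scipy 1.17.1, pandas 2.3.3, pyfaidx 0.9.0.4, matplotlib 3.10.9 and numpy 2.4.6 under Python 3.11.15, and the fits were checked on simulated data.

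The members and gene lists were chosen with earlier results of these data known, and 1 gene of the lists is not reported here by name. Named were all 10 genes with their promoter regions, the regions called, those with peaks in 1 treatment alone and, for each antibody, the 3 regions with the largest difference; other regions given were chosen after their values were seen. Replicate numbers come from the labels. In H3K27ac the deviations of same-numbered libraries correlated at 0.87, 0.59 and 0.59, all over 0.1, so by that rule the numbers were taken to pair the libraries, although replicate 2 correlated slightly better with another number (0.61), as did replicates 2 and 3 on pileup (0.48 against 0.49 and 0.59 against 0.60). Alternatives were peak threshold, list length, window, overlap, replicate block, centring, pileup and leaving out each library.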

Additional observations from a re-analysis of the deposited data

How the results depend on the processing

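Most results kept their direction and side of the threshold. Of the 28 H3K27ac regions, the fold enrichment fit called 0 higher and 0 lower. It called 3 lower with the replicate block (11.8% of all regions) and 3 lower when centred with the block (8.57%). Calls on summit pileup were 4 lower (13.3% of all regions), and with the block 15 lower and 2 higher (53.7% and 12.2%). Centred, they were 9 lower and 6 higher (27.1% and 11.9%). Centred with the block, they were 11 lower and 11 higher, against 6505 and 4579 of all 18407 regions. Leaving out 1 library moved the pileup calls from 0 to 12 lower and from 0 to 1 higher, and a window of 50 kb gave 1 higher. H3K27ac regions in VPA alone numbered 2, with 0 at a −log10 q-value of 10, 0 at equal list lengths, 1 in a window of 10 kb, 6 in one of 50 kb and 2 to 7 with 1 library left out. Genes with longer H3K27ac coverage in all VPA libraries numbered 2, with 1 at equal list lengths, 1 by number of peaks, 6 at 50 kb, 9 within the replicate block and 2 to 9 with 1 library left out. CTCF regions in VPA alone numbered 1, with 0 at equal list lengths and 1 to 2 with 1 library left out. Genes with longer CTCF coverage numbered 0, with 1 longer and 1 shorter within the replicate block and 0 to 3 longer with 1 library left out. The cause of these shifts was not tested. Shares over all regions or genes were not counted with a library left out, another window or lists of equal length.

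Some uncalled differences changed sign. With 1 library left out, the H3K27ac log2 fold enrichment ran from −0.67 to 0.22 at FOSB, −1.14 to 0.21 at FOSL2, −0.65 to 0.46 at JUNB and −0.68 to 0.35 at EGR1. For CTCF it ran from −0.10 to 0.45 at FOSL2, −0.29 to 0.43 at ATF3 and −0.22 to 0.36 at IER2. On CTCF pileup ATF3 had −0.024 and IER2 −0.18, with and without the replicate block. In CTCF the same-numbered deviations correlated at 0.34, −0.05 and 0.48 on fold enrichment but at 0.79, 0.54 and 0.85 on pileup, so whether the numbers pair the libraries depends on the measure. The replicate block called 0 CTCF regions on either, as did the fits without it, and replicate 2 did not correlate best with its own number on either.

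The planned minimum overlap, a set share of the shorter of peak and region, was not run, since every peak lies inside its region; a minimum covered share of the region took its place. That form, the block with pileup or centring, centred pileup and leaving out libraries on pileup were chosen after seeing the data. Unknown read depth and 3 libraries a group limit all results.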
